A study of Homo sapiens with 6 samples.

Results

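The 10 genes described here encode well-known long noncoding RNAs: MALAT1, NEAT1, GAS5, SNHG1, SNHG12, TUG1, HOTAIR, HOTAIRM1, DANCR and PVT1. They were taken as a fixed list from 62663 annotated genes of GENCODE 44 (hg38), and a ChIP-seq peak was assigned to a gene when it shared at least 1 bp with the gene body plus 3 kb on both sides. The annotation types 9 of them as lncRNA and TUG1 as protein-coding. The peaks come from cells labelled HepG2, a human liver cancer line, grown in DMEM with serum. Control cells received no sodium benzoate (SB), and treated cells received SB at 10 mM for 24 h. Chromatin was pulled down with pan antibodies against acetylated lysine (Kac) or benzoylated lysine (Kbz), which do not tell which histone or residue carried the mark. The series has 6 libraries, 1 per group (input, Kac and Kbz of control and of SB-treated cells), and 3 of them gave the peak lists used, which are Kac of control cells, Kac of treated cells (SB Kac) and Kbz of treated cells. The labels say that the control Kbz library gave no peaks, and the inputs were not analysed here.

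Long noncoding RNAs act without being translated, and several of these genes are textbook cases. MALAT1 and NEAT1 transcripts stay in the nucleus, at speckles and paraspeckles. GAS5, SNHG1, SNHG12 and DANCR are host genes, whose introns are processed into small nucleolar RNAs (snoRNAs) that guide the modification of other RNAs. HOTAIR and HOTAIRM1 are transcribed from inside the HOX clusters of developmental transcription factors, and PVT1 lies next to the oncogene MYC. Lysine acetylation of histones is a mark of active promoters and enhancers, and benzoylation is an acyl mark of the same residues fed by benzoyl-CoA.

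With 1 library per group no difference between the lists could be set against replicate error, and no test was made. The Kbz list held 24308 peaks, the Kac list of treated cells 63282 and that of control cells 70326, and the sequencing depth behind them is unknown. The cell label was checked against markers by peaks within 3 kb of any annotated TSS. Of 10 liver genes, 5 had control Kac, 6 SB Kac and 2 Kbz, and ALB, APOB, SERPINA1 and FOXA2 had no peak in any list. Of 4 fibroblast genes (COL1A1, COL1A2, COL3A1 and PDGFRB), all 4 had Kac in both lists and 3 had Kbz, while endothelial genes had 2, 3 and 1 of 3 and blood genes 1 of 4 in each list. These promoters thus go against the liver label in part, and the cells are called labelled HepG2 for this reason. The share of all genes with a peak by this rule is not given, so no marker count can be called high or low. The part of the cells' identity in the results below was not tested.

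The promoters of the snoRNA hosts and of TUG1 and MALAT1 are shown first, as the ones for which a promoter sequence was found. RefSeq promoter windows (GRCh38.p14, 250 bases before to 50 after an annotated start) were found for 6 of the 10 genes, with a further MALAT1 window (not printed) around a start 1405 bp downstream of the canonical one. No window was found for NEAT1, HOTAIR, HOTAIRM1 and PVT1. Each sequence is given from 5′ to 3′ on the strand of its gene, and capitals mark every match on either strand of the GC box GGGCGG, the E-box CACGTG, the ETS core CCGGAAG, the CRE TGACGTCA, TATAAA or CCAAT. The SNHG12 window is chr1:28581824-28582123 (minus strand), that of GAS5 chr1:173868996-173869295 (minus strand), that of SNHG1 chr11:62855836-62856135 (minus strand), that of DANCR chr4:52712144-52712443 (plus strand), that of TUG1 chr22:30969015-30969314 (plus strand) and that of MALAT1 chr11:65497488-65497787 (plus strand).
SNHG12: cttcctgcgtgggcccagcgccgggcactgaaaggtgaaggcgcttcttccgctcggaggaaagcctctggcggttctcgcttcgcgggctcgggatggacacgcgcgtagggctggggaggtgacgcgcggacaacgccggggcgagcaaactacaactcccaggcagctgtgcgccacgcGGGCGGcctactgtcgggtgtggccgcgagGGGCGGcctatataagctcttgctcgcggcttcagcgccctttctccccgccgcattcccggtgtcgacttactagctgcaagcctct
GAS5: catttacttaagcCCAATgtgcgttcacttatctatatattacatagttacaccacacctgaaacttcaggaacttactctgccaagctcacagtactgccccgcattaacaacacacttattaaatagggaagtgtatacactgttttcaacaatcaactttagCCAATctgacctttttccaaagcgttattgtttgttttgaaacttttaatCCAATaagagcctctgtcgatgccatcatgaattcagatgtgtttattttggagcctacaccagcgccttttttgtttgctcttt
SNHG1: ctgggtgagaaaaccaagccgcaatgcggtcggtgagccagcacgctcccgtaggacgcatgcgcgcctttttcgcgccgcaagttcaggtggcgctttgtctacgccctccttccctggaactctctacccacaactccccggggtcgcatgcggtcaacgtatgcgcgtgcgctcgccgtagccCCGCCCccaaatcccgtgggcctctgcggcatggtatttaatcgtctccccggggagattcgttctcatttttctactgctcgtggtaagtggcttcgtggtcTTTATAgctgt
DANCR: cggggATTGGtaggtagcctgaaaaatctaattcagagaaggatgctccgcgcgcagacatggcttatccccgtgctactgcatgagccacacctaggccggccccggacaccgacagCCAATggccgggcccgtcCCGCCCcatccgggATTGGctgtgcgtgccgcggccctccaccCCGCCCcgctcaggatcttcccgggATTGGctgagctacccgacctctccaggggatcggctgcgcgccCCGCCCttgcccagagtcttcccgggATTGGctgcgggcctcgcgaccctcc
TUG1: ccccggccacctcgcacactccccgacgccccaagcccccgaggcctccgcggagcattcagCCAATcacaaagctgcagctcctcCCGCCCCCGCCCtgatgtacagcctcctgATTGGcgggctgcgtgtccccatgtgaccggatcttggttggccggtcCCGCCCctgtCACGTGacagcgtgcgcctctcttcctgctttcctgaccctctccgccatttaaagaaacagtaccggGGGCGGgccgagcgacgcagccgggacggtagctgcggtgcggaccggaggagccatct
MALAT1: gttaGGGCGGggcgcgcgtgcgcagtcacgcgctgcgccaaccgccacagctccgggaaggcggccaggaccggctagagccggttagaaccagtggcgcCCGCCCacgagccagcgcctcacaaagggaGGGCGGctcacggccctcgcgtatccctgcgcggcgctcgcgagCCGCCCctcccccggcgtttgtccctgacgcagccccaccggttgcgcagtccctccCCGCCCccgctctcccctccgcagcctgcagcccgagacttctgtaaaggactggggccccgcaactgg

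Most of these windows were rich in CpG. MALAT1 had 37 CpG dinucleotides in 300 bases, SNHG12 35, SNHG1 30, TUG1 28 and DANCR 27, against a median of 14 and quartiles of 4 and 28 over 34943 RefSeq windows. The GAS5 window had 5, but its start lies 1056 bp upstream of the canonical TSS and outside the GENCODE gene, so it does not describe the sequence at the canonical TSS. The GC box occurred in 5 of the 6 windows printed, GAS5 being the exception, and in 44.9% of all windows. MALAT1 held 5 copies, TUG1 4, DANCR 3, SNHG12 2 and SNHG1 1. The CCAAT box was found 5 times in DANCR, 3 times in GAS5 and 2 times in TUG1, and in 34.6% of all windows at least once. Among the windows printed, TUG1 held the only E-box (7.23% of all windows) and SNHG1 the only TATAAA (11.6%). None of them held the ETS core (10.2% of all windows) or the CRE (1.84%). The SNHG1 RNA starts with CT at this RefSeq start, as 6.87% of all windows do. A match describes the letters only.

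All 300 bases of the SNHG12, SNHG1, DANCR, TUG1 and MALAT1 windows lay under a peak in each of the 3 lists. At GAS5, Kac covered all 300 bases in control and 224 after SB, Kbz covered 41, and the RefSeq start used there was 9 bp outside the Kbz peak. The canonical TSS of GAS5 was under Kbz.

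All 10 genes had a control Kac, an SB Kac and a Kbz peak in the gene body plus 3 kb. Over all genes this held for 48.7% with control Kac, 47% with SB Kac and 36% with Kbz, and over the 18866 lncRNA genes for 51%, 48.4% and 33.3%. Long genes have more room for a peak, so the canonical TSS itself was examined too. It was under control Kac and SB Kac at 10 of the 10 genes and under Kbz at 9, the exception being SNHG12. The corresponding shares were 28.4%, 28.3% and 20.4% of all genes and 24.8%, 24.1% and 16% of lncRNA genes. All 3 lists covered the canonical TSS of 15.4% of lncRNA genes, and both Kac lists without Kbz that of 5.65%.

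**Figure D1:**
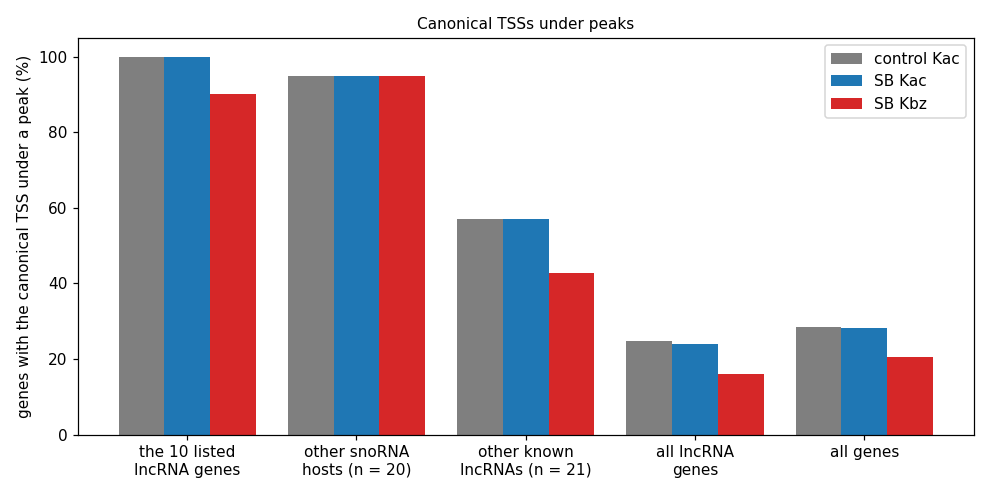
Percentage of genes whose canonical TSS lay under a peak of control Kac (grey), SB Kac (blue) or SB Kbz (red), for the 10 genes, 20 other snoRNA hosts, 21 other known lncRNAs, all lncRNA genes and all genes. The 10 genes stood at 100%, 100% and 90%, and all lncRNA genes at 24.8%, 24.1% and 16%.

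Other genes of the same kinds were set beside them. Of 20 other snoRNA host genes, 19 had the canonical TSS under a peak in each of the 3 lists. The one without was SNHG14, a long transcript from the imprinted Prader-Willi region, which had no peak of any list in its gene body plus 3 kb. Of 21 other lncRNAs with published functions, 12 had control Kac, 12 SB Kac and 9 Kbz over the canonical TSS. HOTTIP, in the HOXA cluster, was under control Kac only, and PCAT1 under SB Kac only. CRNDE and FTX (the latter named after its values were seen) were under Kac in both conditions without Kbz. In the gene body plus 3 kb, 18 of the 21 had control Kac, 18 SB Kac and 17 Kbz. There HOTTIP, PCAT1, CRNDE and FTX had a peak of all 3 lists. No peak was found within 3 kb of the body of CYTOR, GAS6-DT or LINC-ROR.

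The peaks over these start sites were long. Kac peaks had a median length of 7401 bp in control and 8814 bp after SB, and Kbz peaks one of 4984 bp. Peaks over the canonical TSS of lncRNA genes in general had medians of 2929, 3000 and 1806 bp in the same order. By fold (the authors' ratio of read density over background, ranked inside each list because folds of lists of unknown depth are not comparable) the members' start-site peaks had a median percentile of 93.9 for Kac in control, 93.8 for Kac after SB and 79.2 for Kbz. Over lncRNA genes with such a peak it was 83.0, 85.4 and 71.7. Among the members 7 start-site peaks reached percentile 90 in each Kac list and 2 in the Kbz list, the latter at MALAT1 and NEAT1. At the other end stood TUG1, at percentiles 63.0, 79.0 and 40.5, and HOTAIRM1, at 67.4, 86.3 and 49.5.

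**Figure D2:**
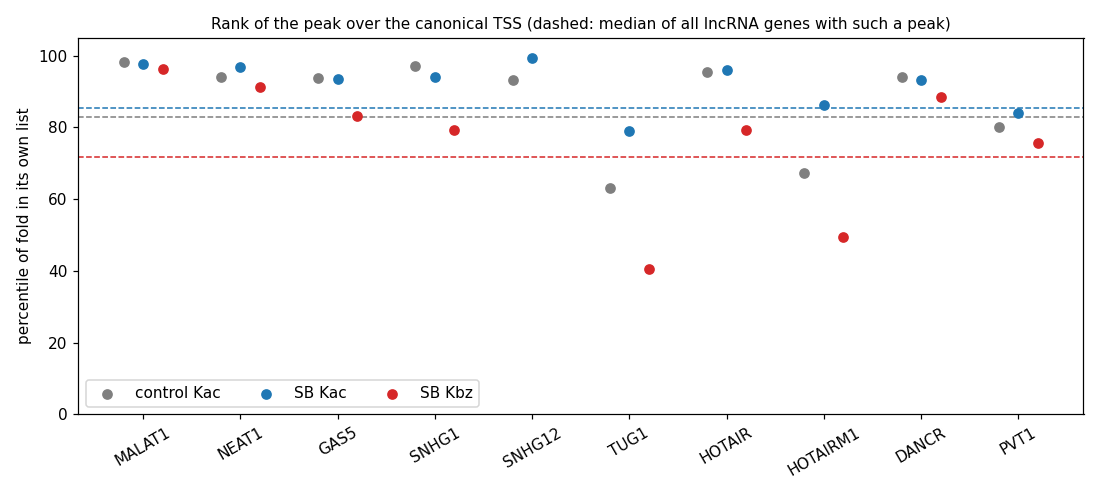
Percentile of the fold of the peak over the canonical TSS within its own list (y axis, 0 to 100) for each gene (x axis), in control Kac (grey), SB Kac (blue) and SB Kbz (red), 1 library each. Dashed lines give the medians of all lncRNA genes with such a peak (83.0, 85.4 and 71.7); SNHG12 has no Kbz point because no Kbz peak covered its canonical TSS.

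Where the 3 lists met over one start site, at 9 of the genes, the Kbz peak was usually the shortest. Its length was 50.7% of that of the SB Kac peak in the median, against 61.0% over 2908 lncRNA genes of this kind. It was longer than the SB Kac peak at GAS5 and TUG1, as at 5.95% of those lncRNA genes. SB Kac peaks were longer than control Kac peaks at 7 of the 9 genes and shorter at NEAT1 and TUG1. Among the lncRNA genes 53.7% had the longer Kac peak after SB.

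**Figure D3:**
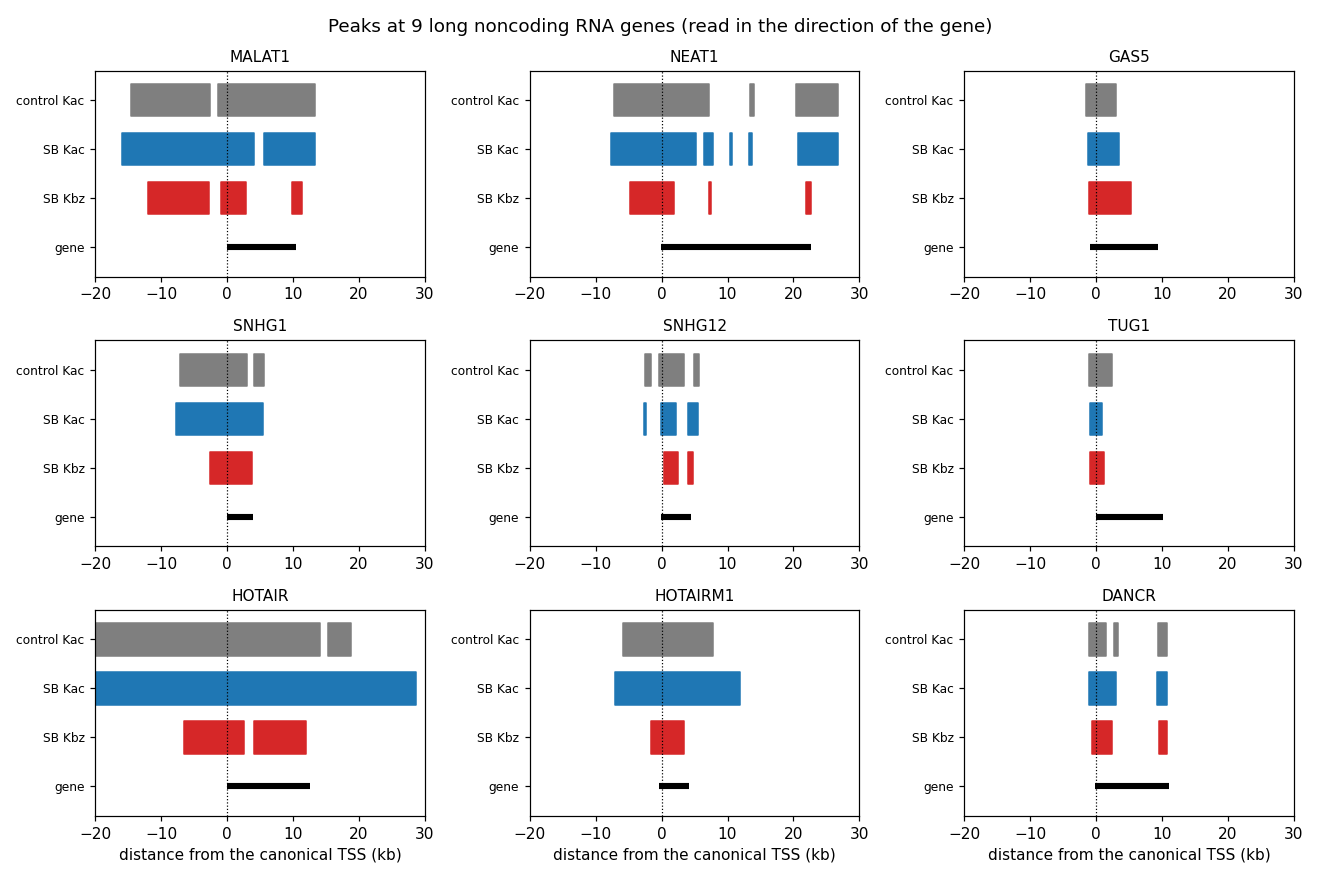
Peaks of control Kac (grey), SB Kac (blue) and SB Kbz (red) around 9 of the genes, plotted as distance from the canonical TSS (x axis, kb) in the direction of transcription, with the gene body in black and the TSS dotted. Each Kbz peak overlapped an SB Kac peak, and the Kac domain over HOTAIR runs past the left edge, to 72075 bp upstream in control and 72160 bp after SB.

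MALAT1 (chr11:65497640-65508073, plus strand) carried the strongest Kbz start-site peak of the set. That peak had a fold of 7.31 and stood at percentile 96.4 of the Kbz list. It reached from 903 bp upstream to 2859 bp downstream of the TSS. Another Kbz peak of 9349 bp ended 2727 bp upstream, and a weaker one lay from 9868 to 11302 bp downstream, near the 3′ end of the gene. Kac covered nearly all of the window, 92.3% in control and 90.2% after SB, against 33.3% for Kbz. The break between Kac peaks was in a different place in the 2 lists: in control it lay upstream of the TSS, between 2572 and 1406 bp, and after SB inside the gene, between 4113 and 5555 bp downstream. Of the 40 annotated start positions of MALAT1, Kac covered 40 in control and 30 after SB, and Kbz covered 18. The start of TALAM1, its antisense transcript, is within 3 kb of the 3′ peaks, and peaks carry no strand.

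NEAT1 (chr11:65422774-65445540, plus strand), on the same chromosome, resembled MALAT1 in having Kac at both ends. Its Kbz peak at the 3′ end had a −log10 q of 1.96, short of the stated FDR of 0.01, and that of MALAT1 one of 5.37. The start-site peak of NEAT1 reached from 7244 bp upstream to 7206 bp downstream in control Kac, from 7733 to 5248 bp in SB Kac and from 4775 to 1806 bp in Kbz. The Kbz fold of 6.31 stood at percentile 91.2. At the 3′ end a control Kac peak lay from 20358 to 26703 bp downstream, an SB Kac peak from 20774 to 26748 bp and a Kbz peak of 788 bp from 21933 to 22720 bp, with the last at percentile 17.0. In between, SB Kac held 3 short peaks, and control Kac a peak of 610 bp from 13355 to 13964 bp. The SB Kac peak from 10416 to 10735 bp was the only one outside PVT1 that had no control Kac peak. It had a fold of 3.48 and no Kbz. A Kbz peak of 315 bp, from 7245 to 7559 bp downstream, overlapped SB Kac but not control Kac, whose peak ended 7206 bp downstream. Peaks covered 56.4% (control Kac), 53.4% (SB Kac) and 20.6% (Kbz) of the window.

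GAS5 (chr1:173858559-173868882, minus strand), which accumulates in growth-arrested cells, was the gene where Kbz reached farther downstream than both Kac peaks. Each list held 1 peak, which covered the canonical TSS at 173867989. Upstream, the peaks ended within a short range, with Kac at 1495 bp in control and 1230 bp after SB and Kbz at 1047 bp. Downstream they reached 3077, 3414 and 5319 bp. Kbz therefore covered 39.0% of the window against 28.0% for control Kac and 28.5% for SB Kac, and 84.9% of exon sequence against 62.5% and 69.3%. A Kbz peak longer than both Kac peaks over the same TSS was found at 2.17% of lncRNA genes with all 3 peaks. The Kbz peak had a fold of 5.52 at percentile 83.3, and the Kac peaks stood at 93.9 in control and 93.6 after SB. The TSS of ZBTB37 lies 93 bp upstream on the opposite strand and was inside the same peak in each list, so these peaks cannot be assigned to one of the genes.

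SNHG1 (chr11:62851978-62855953, minus strand) shares its promoter in the same way with SLC3A2, a subunit of amino acid transporters, whose TSS lies 82 bp upstream. The control Kac peak reached from 7227 bp upstream to 3001 bp downstream, the SB Kac peak from 7787 to 5418 bp and the Kbz peak from 2610 to 3808 bp. A small control Kac peak from 4140 to 5547 bp downstream (percentile 40.3) was part of the single SB Kac peak. The exons of all annotated transcripts together span the whole gene body of 3976 bp. Control Kac covered 76.3% of it, SB Kac 100% and Kbz 96.6%. All 7 snoRNA genes annotated inside SNHG1 were under a peak in each list, the farthest 2887 bp from the TSS. Over all 2870 annotated snoRNA, miRNA and scaRNA genes, Kac covered 14.6% in control and 14.6% after SB, and Kbz covered 8.82%.

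SNHG12 (chr1:28578538-28583132, minus strand) was the member whose canonical TSS, at 28582986, had no Kbz. Its main control Kac peak began 398 bp upstream and its SB Kac peak 138 bp upstream of that TSS, while the Kbz peak began 392 bp downstream and ended at 2542 bp. The Kbz peak was strong, with a fold of 6.39 at percentile 91.8, and it covered the downstream RefSeq start whose window is printed above, 1113 bp from the canonical TSS. The RefSeq gene start, 3 bp downstream of the canonical TSS, was not under Kbz, so the printed window is not that of the start without Kbz. Of 13 annotated start positions, Kbz covered 9, while Kac covered 13 in control and 11 after SB. The SB Kac peak had a fold of 7.67, at percentile 99.4 of its list, and the control Kac peak one of 4.99, at percentile 93.3. A second Kbz peak, from 3932 to 4734 bp and of low rank, overlapped SB Kac only. Of 5 small RNA records inside the gene, Kbz covered 4, and Kac covered 4 in control and 3 after SB. The SNORA16A records among them begin at the same base, so this locus, under a peak of every list, counts more than once.

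DANCR (chr4:52712325-52723623, plus strand), named for its effect on cell differentiation, had 2 Kbz peaks, both matched by Kac in each condition. At the start the Kbz peak reached from 674 bp upstream to 2373 bp downstream, with a fold of 5.98 at percentile 88.5. Control Kac reached from 1154 to 1518 bp and SB Kac from 1027 to 3038 bp, and a separate control Kac peak from 2784 to 3294 bp met the latter. The gene's other site lay from 9391 to 10708 bp downstream in control Kac, from 9316 to 10708 bp in SB Kac and from 9476 to 10699 bp in Kbz. Its Kac peak stood at percentile 73.3 in control and 89.8 after SB, its Kbz peak at 44.7, and the starts of 2 unnamed noncoding genes lay within 3 kb of it. The annotated MIR4449 and SNORA26 genes, 181 and 748 bp from the TSS, were under all 3 lists.

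TUG1 (chr22:30969245-30979395, plus strand), a transcript first described for its increase with taurine, had the lowest-ranked start-site peaks of the set in each list. Each list held 1 peak, over the TSS, with a fold of 3.42 for Kac in control, 4.09 for Kac after SB and 3.64 for Kbz. The control Kac peak reached 2472 bp downstream, the SB Kac peak 940 bp and the Kbz peak 1120 bp. Upstream they ended at 1106, 896 and 873 bp, beyond the nearest annotated start of MORC2, at 491 bp on the opposite strand. Window cover was 22.2%, 11.4% and 12.3%. When peaks had to reach a −log10 q of 5, the control Kac and Kbz peaks of TUG1 were lost, as were those of HOTAIRM1, while the SB Kac peaks of both genes passed.

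HOTAIR (chr12:53962308-53974956, minus strand), a transcript that acts with repressive chromatin complexes, lay inside the longest peak of both Kac lists. That peak spanned 86194 bp in control and 100848 bp after SB and lay within 3 kb of starts of HOXC4, HOXC5, HOXC6, HOXC8, HOXC9, HOXC10 and HOXC11. After SB it came within 3 kb of HOXC12 too, where control Kac had a separate peak of 3507 bp. Kbz was called as separate peaks of 9116 and 7840 bp in this window. The first reached from 6498 bp upstream to 2617 bp downstream of the TSS (fold 5.22, percentile 79.2), and the next lay from 4093 to 11932 bp downstream (fold 4.18, percentile 57.4). Kac covered 93.8% of the HOTAIR window in control and 100% after SB, and Kbz 72.2%. The TSS of HOXC11, 1828 bp inside the gene on the opposite strand, was under the same Kbz peak as that of HOTAIR.

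HOTAIRM1 (chr7:27095647-27100265, plus strand), a transcript of the HOXA cluster known from myeloid cells, showed the same arrangement at a smaller scale. Kac covered 100% of its window in both conditions, in a peak of 13735 bp in control and 19044 bp after SB. The Kbz peak was 4984 bp long, from 1556 bp upstream to 3427 bp downstream, and covered 46.9% of the window.

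**Figure D4:**
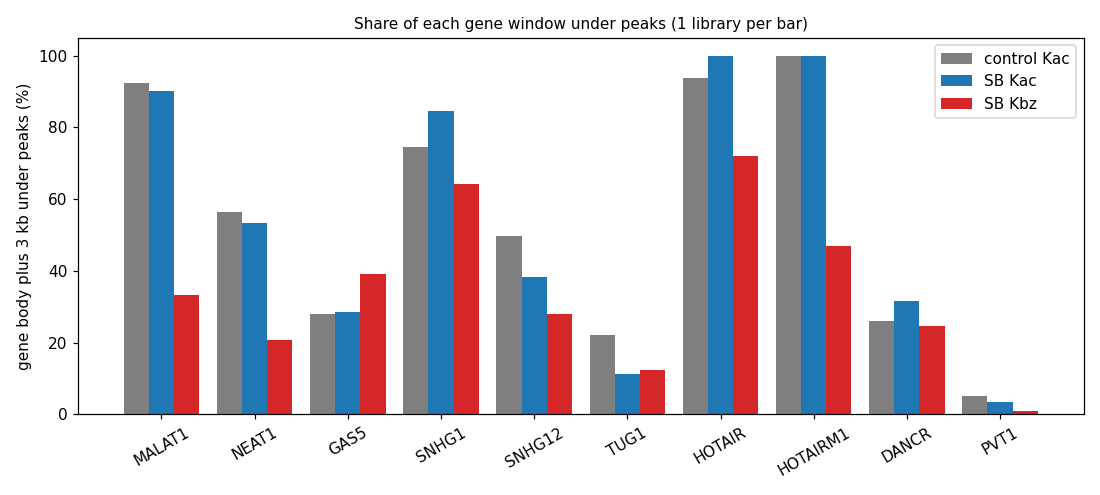
Percentage of the gene body plus 3 kb under peaks (y axis) for each gene (x axis) in control Kac (grey), SB Kac (blue) and SB Kbz (red), 1 library per bar and hence no error bars. Kbz covered less than SB Kac at 8 genes and more at GAS5 (39.0% against 28.5%) and TUG1 (12.3% against 11.4%).

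PVT1 (chr8:127794526-128187101, plus strand) was by far the longest gene, and it held Kac at many sites far inside the gene. It had 12 Kac peaks in control, 10 Kac peaks after SB and 3 Kbz peaks, of which 11, 9 and 2 lay beyond 3 kb of the canonical TSS. The start-site peaks reached from 608 bp upstream to 2098 bp downstream in control Kac, from 781 to 2311 bp in SB Kac and from 751 to 1664 bp in Kbz, at percentiles 80.0, 83.9 and 75.8. MIR1204, 1421 bp from the TSS, was under all 3 lists, whereas MIR1205, MIR1206 and MIR1207 were under none and MIR1208 under control Kac only. Peaks covered 5.14%, 3.35% and 1.03% of the window.

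One distal site of PVT1 held a peak of each list. It lay from 15361 to 16509 bp downstream of the TSS in control Kac, from 14801 to 16839 bp in SB Kac and from 15424 to 16770 bp in Kbz, and it was the distal PVT1 peak with the highest fold in both Kac lists. That fold was 4.69 in control (percentile 90.2) and 3.56 after SB (percentile 69.7). Of the 9 distal SB Kac peaks of PVT1, this was the 1 with Kbz. The distal Kbz peak with the highest fold (4.41, percentile 63.1) lay elsewhere, from 187832 to 188185 bp downstream. It was 354 bp long, had no Kac peak in either condition and was within 3 kb of an annotated start of PVT1 itself.

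**Figure D5:**
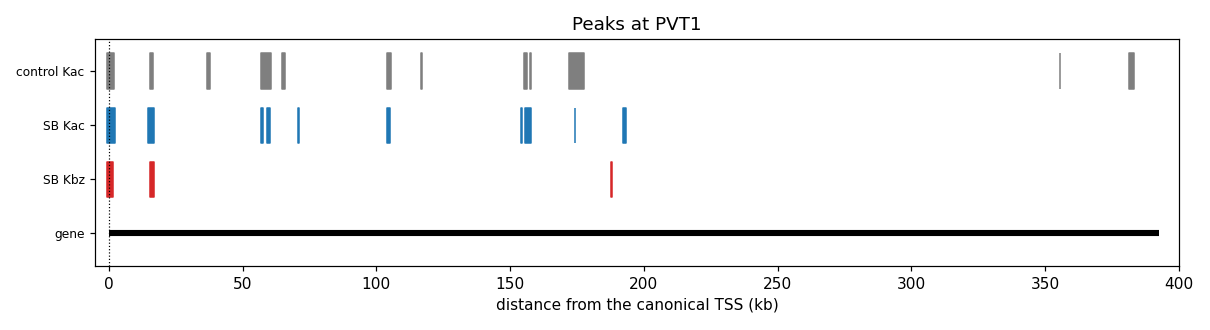
Peaks of control Kac (grey), SB Kac (blue) and SB Kbz (red) along PVT1 as distance from its canonical TSS (x axis, kb), with the gene body in black. All 3 lists met at the TSS and at the site that begins 14801 bp downstream in SB Kac, and the Kbz peak that begins at 187832 bp stood alone.

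Control Kac peaks that had no counterpart after SB, by an overlap of at least 1 bp, were found at PVT1 alone among these genes. Of 30 control Kac peaks at the members, 5 had no SB Kac peak, and the whole-list share was 35.3%. When each peak had to cover 50% of the other, 14 had none, more than the 12 control Kac peaks of PVT1. The 5 by the 1 bp rule began 36822, 64828, 116726, 355401 and 381322 bp downstream of the PVT1 TSS, and none of them had Kbz. They stood at percentiles 36.0, 29.9, 47.4, 31.5 and 73.5 of their list. Without PVT1 their count was 0 of 18. In the other direction 4 of 27 SB Kac peaks had no control Kac peak (27.5% in the whole list), 3 at PVT1, beginning 70578, 154140 and 192095 bp downstream, and 1 at NEAT1. The 3 at PVT1 ranked low in their list, at percentiles 9.26, 7.42 and 4.33. Their −log10 q was 1.64, 1.38 and 1.47, short of the 2 that the stated FDR of 0.01 requires. Of the 19 Kbz peaks at the members, 18 overlapped an SB Kac peak (93.7% in the whole list), and 16 of the 27 SB Kac peaks overlapped Kbz (33.8%). Outside PVT1 this was 14 of 17.

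The extent of the marks moved both ways with SB. Window cover was greater in SB Kac than in control Kac at GAS5, SNHG1, HOTAIR and DANCR, equal at HOTAIRM1 and smaller at MALAT1, NEAT1, SNHG12, TUG1 and PVT1. Over all windows Kac covered 19.4% of bases in control and 17.9% after SB, and Kbz covered 10.3%. PVT1 made up 73.3% of these bases, and without it the values were 58.6%, 57.9% and 35.8%. Of 276 annotated start positions of the 10 genes, Kac covered 208 in control (75.4%) and 190 after SB (68.8%), and Kbz covered 167 (60.5%), against 28.2%, 27.4% and 19.3% of the start positions of lncRNA genes and 38.8%, 39.1% and 28.9% of those of all genes. PVT1 holds 132 of the 276, and without it the counts were 141, 124 and 109 of 144. How far these shares follow from the depth of each library cannot be told from peak lists.

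Neighbouring genes limit what the peaks say about a single gene. A coding TSS lay within 2 kb of the canonical TSS at GAS5, SNHG1, TUG1 and HOTAIR, in each case on the opposite strand and under the same peak in all 3 lists. MALAT1, NEAT1, SNHG12, DANCR and PVT1 had their nearest coding TSS between 9214 bp (RAB42, from SNHG12) and 55468 bp (MYC, from PVT1) away. Their Kbz start-site peaks stood between percentiles 75.8 and 96.4 at the 4 of them that had one, and those of GAS5, SNHG1, TUG1 and HOTAIR between 40.5 and 83.3. These ranges overlapped. GAS5 (83.3), SNHG1 (79.2) and HOTAIR (79.2) stood above PVT1 (75.8), and the low end of 40.5 was TUG1.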

How the data were processed

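Per the labels and the methods of the study, chromatin of cells labelled HepG2 was digested with micrococcal nuclease, immunoprecipitated and sequenced. According to the methods and the submitters' processing notes, uniquely mapped reads (Bowtie2 2.2.6, hg38) were kept, PCR duplicates were taken out (SAMtools 0.1.19) and MACS2 2.1.1 called the peaks, at a stated FDR of 0.01. The lists are in the broad format. The deposited lists reach down to a −log10 q of 1.31, beyond that FDR. The deposited fold is a ratio of read density over background and was ranked within its list only. The deposited −log10 q (of the caller's q-value) was used for thresholds. The deposited −log10 p (p-value) was used only to rank peaks for the alternative lists of 15000 peaks. The deposited score was not used. The lists carry no read totals.

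Peaks of the 24 main chromosomes were intersected with GENCODE 44 genes (overlap of at least 1 bp). The canonical TSS is that of the Ensembl canonical transcript. RefSeq promoter windows replaced windows around the canonical TSS for sequences. The genes and the lists were chosen with earlier results of these data known. The text names all 10 genes and, at each, the peak over the canonical TSS or the nearest one, for PVT1 the distal peak of highest fold of each list, the nearest coding gene (for 1 gene this is not reported here), and from each comparison list at most 6 genes that differ from most of it. Further peaks of a gene were named after their values were seen. Of 22 other lncRNAs listed, 21 were found by name. No test was made, as each group has 1 library. The software was Python 3.11.15, pandas 2.3.3, numpy 2.4.6, matplotlib 3.10.9 and scipy 1.17.1. Overlap counting was tested on simulated data. Alternatives were stricter q thresholds, lists of 15000 peaks, other flanks and overlaps, and leaving out PVT1.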

Additional observations from a re-analysis of the deposited data

How the results depend on the processing

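No paired analysis was possible because every group holds a single library, and none could be left out for the same reason. The RefSeq gene start was chosen as an alternative after seeing the data. The 19 summary values were recomputed 124 times, and 98 of these stayed within 1.5 times of the original. The numbers of genes with a peak, and with a peak over the canonical TSS, moved least: over all alternatives they were at least 8 and 8 for control Kac, 9 and 10 for SB Kac, and 8 and 7 for Kbz. With the RefSeq gene start (for SNHG12 the one 3 bp from the canonical TSS, not the downstream start of the printed window) Kbz covered 8 starts, with GAS5 and SNHG12 not covered. The cause of a move was not tested except where the alternative itself uses fewer peaks or genes.

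With a −log10 q threshold of 5 each list held 12 peaks at the genes, with 68793 bases under control Kac, and 9 control Kac peaks near the TSS of another gene. Kbz peaks with SB Kac were then 10, SB Kac peaks with Kbz 8 and control Kac peaks without SB Kac 3. With a threshold of 2, 2 SB Kac peaks had no control Kac peak. With 15000 peaks of each list there were 11 control Kac and 12 SB Kac peaks, 64913 bases under control Kac, 9 control Kac peaks near another TSS and 2 control Kac peaks without SB Kac. When each peak had to cover 50% of the other, 8 Kbz peaks had SB Kac, 8 SB Kac peaks had Kbz, 14 control Kac peaks had no SB Kac and 11 SB Kac peaks had no control Kac. In the gene bodies alone 64763 bases lay under SB Kac. Without PVT1 there were 18 control Kac and 17 SB Kac peaks, 0 control Kac peaks without SB Kac and 1 SB Kac peak without control Kac. With coding neighbours only, the peaks within 3 kb of another TSS were 6 for Kac in control, 5 for Kac after SB and 6 for Kbz, in place of 19, 16 and 16.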

Other observations

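LncRNA genes in general were split by the distance from their canonical TSS to the nearest coding TSS, a split made after the values of the 10 genes were seen. Of 3965 lncRNA genes with a coding TSS within 1 kb, Kac covered the TSS of 63.7% in control and 65.4% after SB, and Kbz that of 51.2%. Of 10958 lncRNA genes with a coding TSS over 10 kb away, Kac covered 1378 in control (12.6%) and 1210 after SB, and Kbz 644 (5.88%). MALAT1, NEAT1, DANCR and PVT1 belong to the latter class and were under all 3 lists.

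Among the 20 records of snoRNA and miRNA genes inside the 10 genes, Kac covered 16 in control and 14 after SB, and Kbz covered 14, beside the shares given with SNHG1 for all such genes. None of the 20 lies in GAS5, although it is a snoRNA host. Only records that the annotation types as snoRNA, miRNA or scaRNA, inside the gene and on its strand, were counted, so the 20 need not be complete. The SNORA16A locus of SNHG12 counts more than once among them. MIR612, near the 3′ end of NEAT1 and 21660 bp from its TSS, was under Kac in both conditions and not under Kbz. In SNHG12, SNORA61 (3093 bp from the TSS) was under control Kac only and SNORD99 (4164 bp) under SB Kac and Kbz.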
